A study of Mus musculus with 9 samples.

Results

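The cytosolic ribosome is built from RNA and a fixed set of structural proteins, and the genes of those proteins were taken from the deposited count table by name: Rpl or Rps followed by a number, Rplp0 to Rplp2, and Rpsa. Names of processed pseudogenes ending in -ps were left out. The rule found 89 genes of 49510 in the table. Of these, 77 are the core genes of the ribosome, 46 of the large and 31 of the small subunit. The other 12 are related genes. Of these Rpl10l, Rpl22l1, Rpl36al, Rpl39l, Rpl3l, Rpl7l1 and Rps27l are paralogs annotated as protein-coding. The near-copies Rpl6l, Rps12l1, Rps3a2 and Rps3a3 are annotated as processed pseudogenes and Rps4l as a transcribed processed pseudogene, and they are members because their names carry no -ps. The counts came from regulatory T cells (Tregs) of Foxp3-GFP transgenic mice, 8 weeks old, all sampled 3 days after ischemia/reperfusion (I/R) injury of the heart. There were 3 libraries of Tregs from the injured heart, 3 from the spleen and 3 from the heart-draining mediastinal lymph node (MLN), and no uninjured group. Cells were sorted first magnetically and again by flow cytometry, and a SMARTer kit for very low input made the cDNA. Nothing in the labels ties a library to its own animal or pool. The spread behind each p-value is therefore that between these samples, which may be technical.

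Ribosomal proteins fold around ribosomal RNA into a small subunit, which reads the messenger RNA, and a large subunit, which joins amino acids. Because the proteins are needed in nearly equal numbers, their messenger RNAs are abundant in nearly every cell and tend to rise and fall together. Most of these messages begin with a C followed by a run of pyrimidines, the terminal oligopyrimidine (TOP) motif, through which the kinase complex mTORC1 and the protein Larp1 control their translation. T cells that are activated build more ribosomes, and several ribosomal proteins have further work when they are not in a ribosome.

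Sequence around the annotated start sites is shown for 8 members described below, because the TOP motif is read from the first bases of the message. Each line gives 15 bases before and 15 bases from the RefSeq start of a gene on GRCm38.p6, 5′ to 3′ on the gene's strand, with runs of at least 8 C or T letters in capitals.
Rps6 (chr4:86857353-86857382, minus strand): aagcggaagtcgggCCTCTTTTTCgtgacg
Rps27 (chr3:90213634-90213663, minus strand): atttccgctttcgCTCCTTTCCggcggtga
Rps27l (chr9:66946071-66946100, plus strand): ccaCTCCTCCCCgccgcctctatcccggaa
Rpl4 (chr9:64173372-64173401, plus strand): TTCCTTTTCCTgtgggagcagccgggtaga
Rpl13 (chr8:123102335-123102364, plus strand): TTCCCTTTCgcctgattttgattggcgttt
Rpl7a (chr2:26910792-26910821, plus strand): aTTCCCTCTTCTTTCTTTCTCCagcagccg
Rpl12 (chr2:32961697-32961726, plus strand): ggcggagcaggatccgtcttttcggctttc
Rplp0 (chr5:115559452-115559481, plus strand): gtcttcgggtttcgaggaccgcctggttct
Runs of pyrimidines spanned the RefSeq start in Rps6, Rps27 and Rpl7a. In Rps27l and Rpl13 the runs ended before the annotated start, outside the annotated message. In Rpl4 the run ended before the RefSeq start. The start of the Rpl4 gene in the GENCODE annotation, base 64173375, lies within that run, so whether the message begins with it depends on the annotation. Rpl12 and Rplp0 had none within these 30 bases. A promoter sequence was found for 64 of the 89 members. A run of at least 8 C or T letters on the gene's strand, within 30 bases of the start on either side, was found in 54.7% of the 64 members and in 25.8% of 27025 genes with a promoter sequence. On the opposite strand the same search found 12.5% of the members and 28.7% of all genes. The letters CCGGAA, searched on both strands over 250 bases before and 50 bases from the start, were found in 54.7% of the members and 16.7% of all genes. The letters TATAAA, searched on the gene's strand in the 50 bases before the start, were found in 1.56% of the members and 4.17% of all genes. These are matches of letters and were not tested for binding.

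Libraries held 156194012 to 267520538 counts. The libraries spleen 3, MLN 3 and heart 2 differed from the others of their organs: their scaling factors were highest (1.24, 1.17 and 1.11) and their shares of counts in B2m lowest, at 1.20%, 1.55% and 1.25%. Levels are given in CPM, counts scaled to a common library size. Foxp3, which defines Tregs, was at 8.71, 37.8 and 0.239 CPM in the heart libraries, 42.4, 41.8 and 46.3 CPM in the MLN and 31.1, 32.6 and 186.8 CPM in the spleen. The Treg identity list (15 of 15 genes detected in each organ) held 0.177% to 0.290% of counts in the heart, 0.411% to 0.592% in the MLN and 0.433% to 0.538% in the spleen. Markers of other cells differed between the organs in the same libraries. The macrophage and monocyte list (15 of 15 genes detected) held 0.788% to 1.04% of counts in the heart, 0.0286% to 0.0831% in the MLN and 0.110% to 0.336% in the spleen. The fibroblast list held 0.452% to 1.66% in the heart (12 of 12 detected), with Lum and Pdgfra at 0 in the MLN and Tcf21 at 0 in the spleen, where it held at most 0.00564% and 0.00586%. The B cell list held 0.386% to 0.557% in the spleen, 0.0903% to 0.360% in the MLN and 0.00718% to 0.0188% in the heart, where 10 of 12 genes were detected and Blk was at 0. Mast cell markers held 0.621% and 0.596% of counts in heart 1 and heart 2 and 0.00410% in heart 3, and neutrophil markers held 0.0591% to 0.324% in the heart and at most 0.00445% in the lymphoid organs. Plasma cell markers held 0.232% to 0.875% in the spleen. The part of these markers in the differences of ribosomal protein genes was not tested. Fewer cells of a type and less RNA per cell cannot be told apart in these bulk libraries.

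Ribosomal protein genes took up the smallest share of counts in the heart libraries. The 89 members together held 3.51%, 2.29% and 3.996% of counts in heart libraries 1, 2 and 3, 7.11%, 7.27% and 6.97% in the MLN, and 7.04%, 5.45% and 3.86% in the spleen. Each heart library lay below each MLN library, while heart 3 lay above spleen 3. Mean shares were 3.27% ± 0.880 in the heart, 7.11% ± 0.149 in the MLN and 5.45% ± 1.59 in the spleen (SD, n = 3 each). The MLN libraries lay close together and the spleen libraries had the largest spread. The subunits kept nearly the same proportion: counts of the 46 large-subunit core genes divided by those of the 31 small-subunit core genes came to 1.39, 1.57 and 1.30 in the heart, 1.39, 1.43 and 1.43 in the MLN and 1.401, 1.402 and 1.62 in the spleen. The highest ratios of the heart and of the spleen were those of heart 2 and spleen 3. The 12 paralogs and near-copies added little, so that the core genes alone held 3.19% ± 0.846 of counts in the heart, 7.04% ± 0.137 in the MLN and 5.39% ± 1.56 in the spleen.

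**Figure D1:**
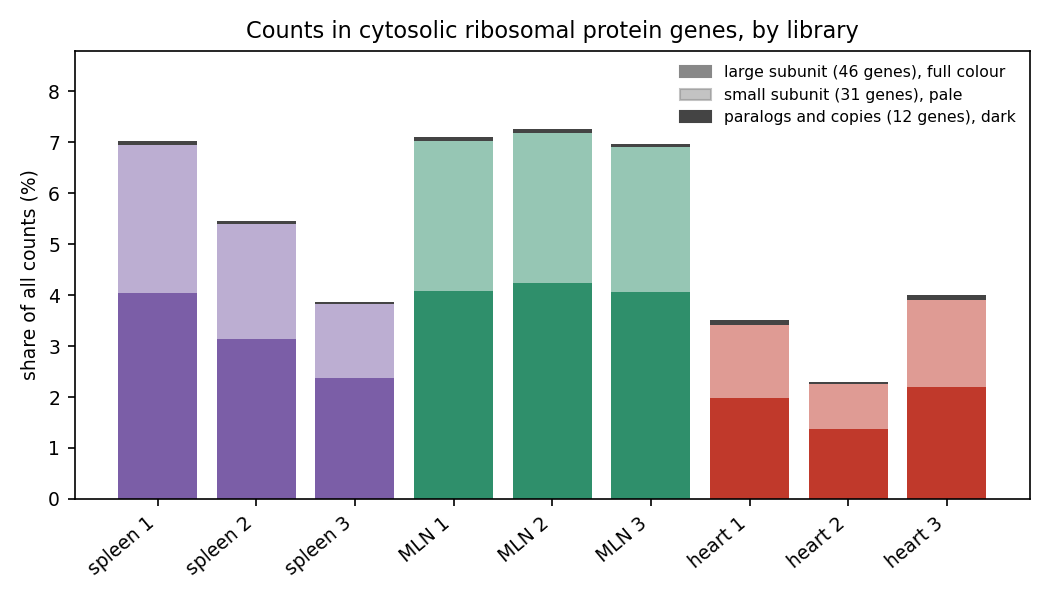
Share of all counts (percent, vertical axis) in ribosomal protein genes for each of the 9 libraries, stacked by large-subunit core genes (full colour), small-subunit core genes (pale) and paralogs or copies (dark). The 3 heart libraries, at 2.29% to 3.996%, all sit below the 3 MLN libraries at 6.97% to 7.27%, and the spleen libraries run from 3.86% to 7.04%.

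Between the heart and the MLN, ribosomal protein genes were lower in the heart in nearly all members, but no single gene passed the test. Of the 87 members with enough counts to be tested, 83 had a lower level in the heart, among them 77 of the 77 core genes, where 46.5% of all 16609 genes tested were lower. The median log2 fold change was -0.80 over the 87 members and 0.12 over all genes tested. With Benjamini-Hochberg adjustment over all genes, the edgeR quasi-likelihood test called 0 members, against 0.283% of all genes called lower and 1.10% called higher. At an unadjusted p below 0.05 there were 21 members, all lower, where 5.23% of all genes were. Levels in the heart libraries lay below those of every MLN library for 50 members (57.5%), 47 of them core genes, against 11.3% of all genes tested. In the other direction this held for 1 member, the transcribed pseudogene Rps4l, against 14.9% of all genes. DESeq2 called 9 members lower (10.3%, against 4.14% of all genes it tested), limma-voom 5 (5.75%, against 1.55%), and edgeR with library totals as the only scaling 4 (against 0.385%); Rpl4, Rplp0, Rpl13 and Rps6 were called by each of these. Without heart 2 the median was -0.47, and without spleen 3, MLN 3 and heart 2 together it was -0.55, with 66 members lower without overlap where 25.3% of all genes were.

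**Figure D2:**
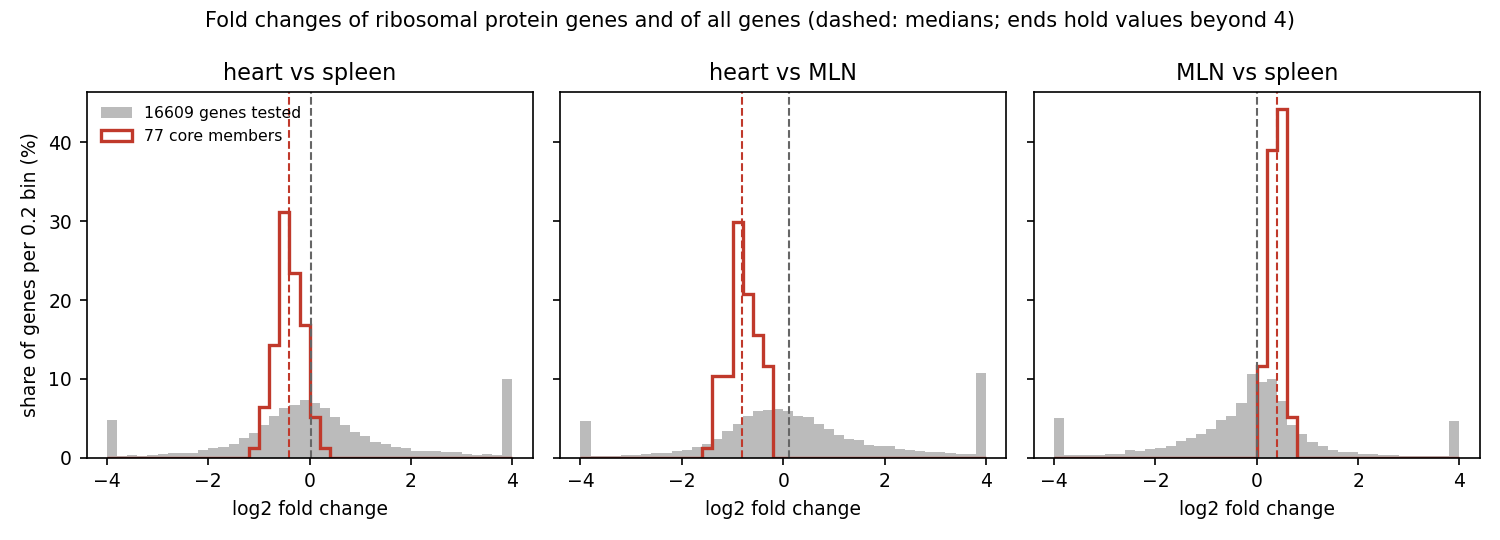
Distribution of log2 fold changes (horizontal axis) as a share of genes per 0.2 bin (vertical axis, percent) for the 77 core ribosomal protein genes (red outline) and for all 16609 genes tested (grey), in each pair of organs. Core members form a narrow peak whose median lies at -0.41 for heart against spleen, -0.81 for heart against MLN and 0.39 for MLN against spleen, with all genes centred at 0.02, 0.12 and 0.

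Among the large-subunit genes, Rpl4 had the smallest p of all members. Rpl4 (ENSMUSG00000032399, chromosome 9, 64173375 to 64178666, + strand, mm10) encodes a protein whose long loop lines the exit tunnel of the ribosome. It was at 837, 729.9 and 781 CPM across heart libraries 1, 2 and 3, 1934, 2196 and 1569 CPM in the MLN and 1692, 1289 and 1362 CPM in spleen libraries. The heart libraries lay close together and below every lymphoid library. Its mean was 783 ± 53.4 CPM in the heart against 1899.8 ± 315 CPM in the MLN, 2.42-fold lower (log2 fold change -1.27, SE 0.28, edgeR adjusted p = 0.0687), and 1.84-fold lower than in the spleen (log2 fold change -0.88, SE 0.28, edgeR adjusted p = 0.181). Rpl13 (ENSMUSG00000000740, chromosome 8, 123102350 to 123105244, + strand) had the lowest fold change of the abundant members. It was at 728, 443 and 729 CPM across heart libraries 1, 2 and 3, 1826, 1726 and 1562 CPM in the MLN and 1651, 1532 and 843 CPM in spleen libraries. Again no heart library reached the lowest lymphoid value, which was that of spleen 3. It was 2.68-fold lower in the heart than in the MLN (log2 fold change -1.42, SE 0.36, edgeR adjusted p = 0.0971) and 2.11-fold lower than in the spleen (edgeR adjusted p = 0.209). Rpl8 (ENSMUSG00000003970, chromosome 15, 76904078 to 76906314, + strand), a protein near the centre where peptide bonds form, was at 221, 382 and 442 CPM across heart libraries 1, 2 and 3, 989.9, 762 and 919.9 CPM in the MLN and 881, 548 and 553 CPM in spleen libraries. Unlike most members it was lowest in heart 1 and not in heart 2, and its groups did not overlap. Its log2 fold change was -1.35 against the MLN and -0.92 against the spleen (edgeR adjusted p = 0.109 and 0.308). Only 8.73% of the 50-base stretches of its coding sequence occur in another gene model, so its counts are among the least open to reads of copies. Rpl7a, a protein on the outer face of the large subunit, had low counts for a core gene, at 37.9, 38.5 and 53.7 CPM across heart libraries 1, 2 and 3, 102, 118 and 109 CPM in the MLN and 95.6, 81.3 and 42.7 CPM in spleen libraries. The heart values lay below the MLN values, and spleen 3 lay within the heart range (log2 -1.34 against the MLN, edgeR adjusted p = 0.127).

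Rplp0 (ENSMUSG00000067274, chromosome 5, 115559467 to 115563727, + strand) is the base of the stalk that recruits elongation factors. It was at 1659.9, 1299 and 1237 CPM across heart libraries 1, 2 and 3, 3409, 3398 and 2549.8 CPM in the MLN and 2792, 2345 and 1943 CPM in spleen libraries. All 3 heart values lay below all lymphoid values (2.22-fold lower than in the MLN, log2 fold change -1.15, SE 0.31, edgeR adjusted p = 0.106). Rpl12, which sits at the foot of the same stalk, was at 69.2, 62.9 and 93.4 CPM across heart libraries 1, 2 and 3, 175, 186 and 172 CPM in the MLN and 171, 113 and 90.4 CPM in spleen libraries. Spleen 3 lay within the heart range, and the MLN libraries lay close together above it. The gene had a log2 fold change of -1.24 against the MLN with an edgeR adjusted p of 0.116. The acidic stalk proteins Rplp1 and Rplp2 differed by -0.83 and -0.80 on the log2 scale (edgeR adjusted p = 0.570 and 0.441). Large-subunit core genes as a group had a median log2 fold change of -0.83 against the MLN (range -1.42 to -0.23), and 28 of 46 had no overlap between the organs, where 11.3% of all genes were lower without overlap.

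Small-subunit core genes had a median of -0.77 against the MLN (range -1.32 to -0.32), and 19 of 31 were lower without overlap, where 11.3% of all genes were. Rps6 (ENSMUSG00000028495, chromosome 4, 86854660 to 86857412, - strand) encodes the protein that S6 kinase phosphorylates downstream of mTORC1. It was at 598, 428 and 739.7 CPM across heart libraries 1, 2 and 3, 1521, 1548 and 1345 CPM in the MLN and 1419, 888 and 688 CPM in spleen libraries. The highest heart library lay below the lowest MLN library but above spleen 3. The difference from the MLN was 2.49-fold (log2 fold change -1.32, SE 0.37, edgeR adjusted p = 0.116), and that from the spleen was -0.76 on the log2 scale (edgeR adjusted p = 0.413). Rpsa (ENSMUSG00000032518, chromosome 9, 120127689 to 120132369, + strand), also known as the precursor of a laminin receptor, was at 347, 365 and 353 CPM across heart libraries 1, 2 and 3, 714, 583 and 606 CPM in the MLN and 579, 459.8 and 382 CPM in spleen libraries. Its heart libraries spread least of all core members, with a coefficient of variation of 2.64%, and lay below every lymphoid library (log2 -0.83 against the MLN and -0.41 against the spleen, edgeR adjusted p = 0.179 and 0.662). Rps19, the gene most often mutated in Diamond-Blackfan anaemia, was at 892, 258 and 803 CPM across heart libraries 1, 2 and 3, 1267, 1232 and 1183 CPM in the MLN and 1304, 1109.7 and 501 CPM in spleen libraries. Heart 2 was far below the other heart libraries, and the comparison with the MLN gave log2 -0.91 (edgeR adjusted p = 0.477). Rps27a is made as a fusion with ubiquitin. It was at 409.9, 144 and 649 CPM across heart libraries 1, 2 and 3, 612, 588 and 465 CPM in the MLN and 629, 436 and 181 CPM in spleen libraries, with heart 3 above all MLN libraries, so the organs overlapped (log2 -0.46, edgeR adjusted p = 0.840).

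Rpl5 and Rpl11, which together with 5S ribosomal RNA can bind Mdm2 and so stabilise p53, had differences within the range of the other core members. Rpl5 was at 524, 301 and 437 CPM across heart libraries 1, 2 and 3, 626, 604 and 615 CPM in the MLN and 616, 483 and 399 CPM in spleen libraries. Its heart libraries lay below the MLN libraries, with a log2 fold change of -0.54 (SE 0.31, edgeR adjusted p = 0.485). Rpl11, one of the most abundant members, was at 2308, 834 and 2381 CPM across heart libraries 1, 2 and 3, 3796, 3785 and 2790.5 CPM in the MLN and 3402, 2369.6 and 1369 CPM in spleen libraries. Each heart library was below each MLN library, and heart 2 lay far below heart 1 and heart 3 (log2 fold change -0.90, SE 0.49, edgeR adjusted p = 0.446).

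Against the spleen the heart libraries were again lower in most members, by less. Of 87 members tested, 76 were lower in the heart, where 49.0% of all genes were, with a median log2 fold change of -0.41 over the members and 0.02 over all genes tested. The edgeR test called 0 members, against 0.175% of all genes called lower and 0.614% called higher, and DESeq2 called Rpl4 alone (log2 -0.83, adjusted p = 0.00429, against 0.00429 to 0.434 over its 19 alternatives), while limma-voom called 0. That 1 member is 1.15% of the members, below the 3.65% of all genes that DESeq2 called lower. An unadjusted edgeR p below 0.05 was reached by 4 members, all lower, a share close to the 4.62% of all genes. The organs did not overlap for 5 members (Rpl4, Rpl13, Rpl8, Rplp0 and Rpsa), or 5.75%, where 6.95% of all genes were lower without overlap. The lowest fold changes among abundant members were those of Rpl13, Rps2 and Rpl8. Rps2, a small-subunit protein at the channel where messenger RNA enters, was at 602, 294 and 346 CPM across heart libraries 1, 2 and 3, 1009.9, 854 and 571 CPM in the MLN and 925, 1085 and 375 CPM in spleen libraries. Spleen 3 lay within the heart range (log2 -0.94, SE 0.48, edgeR adjusted p = 0.460). The size of the difference moved with single libraries: the median was -0.05 without heart 2, -0.67 without spleen 3 and -0.07 without spleen 1, and -0.36 without spleen 3, MLN 3 and heart 2 together. Without spleen 3 alone, 42 members were lower in the heart with no overlap, where 12.6% of all genes were, and the number was 9 without heart 1 and 10 without heart 3, where 10.8% and 9.38% of all genes were, shares close to those of the members.

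MLN libraries had the higher levels of the 2 lymphoid organs. Of 87 members, 86 were higher in the MLN than in the spleen, where 47.5% of all genes were, with a median log2 fold change of 0.39 over the members and 0 over all genes. The edgeR test called 0 members and 0% of all genes in either direction, no member had an unadjusted p below 0.05 (2.40% of all genes were higher at that level), and DESeq2 and limma-voom called 0 members as well. Organs did not overlap for 5 members (5.75%), among them Rpsa, Rpl7a, Rpl13a and Rpl12, where 4.53% of all genes were higher without overlap. The highest fold changes among abundant members were those of Rpl22, Rpl9 and Rps7, and Rps2 and Rpl3 were among the lowest. Rpl9 was at 186, 130.1 and 275 CPM across heart libraries 1, 2 and 3, 469, 487 and 374 CPM in the MLN and 392.1, 228 and 182 CPM in spleen libraries (log2 0.73, SE 0.40, edgeR adjusted p = 0.921). Rps7 was at 573, 210.1 and 822 CPM across heart libraries 1, 2 and 3, 1398, 1559.5 and 981 CPM in the MLN and 1219, 884 and 453 CPM in spleen libraries (log2 0.62, edgeR adjusted p = 1.00). For both genes spleen 1 lay within the MLN range. The difference between the lymphoid organs too moved with single libraries: the median was 0.11 without spleen 3, 0.73 without spleen 1, and 0.18 without spleen 3, MLN 3 and heart 2 together. Members with no overlap numbered 56 without spleen 1 and 36 without MLN 3, where 10.7% and 11.7% of all genes were higher without overlap. The 3 comparisons share libraries, so their medians are not independent of each other.

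The spread between libraries of 1 organ was shared by almost all core members. Median levels of the 77 core genes were 446, 210.1 and 462 CPM in heart libraries 1, 2 and 3, 714, 666 and 578 CPM in the MLN and 682, 506 and 271 CPM in the spleen. Of the 77 core genes, 74 were below the mean of the other 2 heart libraries in heart 2, 76 were below the corresponding mean in spleen 3 and 69 in MLN 3. The shift was deeper in short genes than in long ones. In spleen 3 the median log2 deviation was -1.30 for the 39 genes with coding lengths up to 456 bases and -0.997 for the 38 longer ones, and in heart 2 these were -1.64 and -1.02. Across the 77 genes Spearman's rho between deviation and coding length was 0.70 in spleen 3, 0.67 in heart 2 and 0.21 in MLN 3. Genes within 1 library share its preparation and are not independent, so these values describe the libraries. Counts of the short genes per count of the long genes were 0.586 in spleen 3 and 0.583 in heart 2, against 0.715 to 0.989 in the other 7 libraries.

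**Figure D3:**
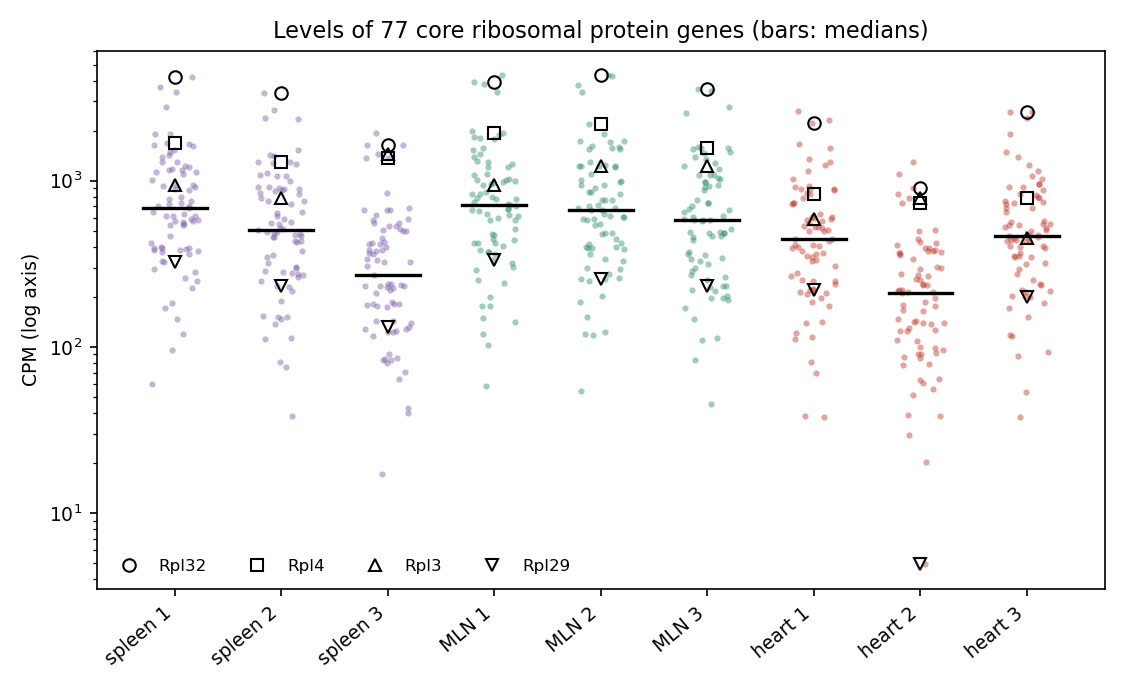
Level of each of the 77 core genes (CPM on a log axis) in the 9 libraries, with medians as bars and 4 genes marked. Medians are lowest in heart 2 (210.1 CPM) and spleen 3 (271 CPM), while Rpl3 and Rpl4 hold their place there and Rpl29 drops out of the range in heart 2.

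The longest core genes, Rpl3 and Rpl4, shared little or none of the shift in spleen 3 and heart 2. Rpl3, a protein that reaches the peptidyl transferase centre, was at 586, 788 and 453 CPM across heart libraries 1, 2 and 3, 947, 1221 and 1222 CPM in the MLN and 942, 783 and 1439 CPM in spleen libraries. It was highest in the libraries where other members were lowest, 0.74 above the other libraries of its organ in spleen 3 and 0.60 above in heart 2 on the log2 scale. Its difference between heart and MLN was -0.89 (SE 0.35, edgeR adjusted p = 0.275). Rpl29 was the extreme on the other side, and was chosen after its values were seen. It was at 220.0, 4.90 and 199.6 CPM across heart libraries 1, 2 and 3, 332, 256 and 233 CPM in the MLN and 326, 233 and 132 CPM in spleen libraries, a log2 ratio of -5.42 for heart 2 against the mean of the other heart libraries. The comparison between organs also varied with length. Across the 77 core genes Spearman's rho between coding length and the log2 fold change of heart against MLN was -0.47, and -0.56 without spleen 3, MLN 3 and heart 2. The median difference was -0.66 for the shorter genes and -0.93 for the longer ones, and -0.40 and -0.73 without those 3 libraries. The part of length in the difference between the organs was not tested.

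**Figure D4:**
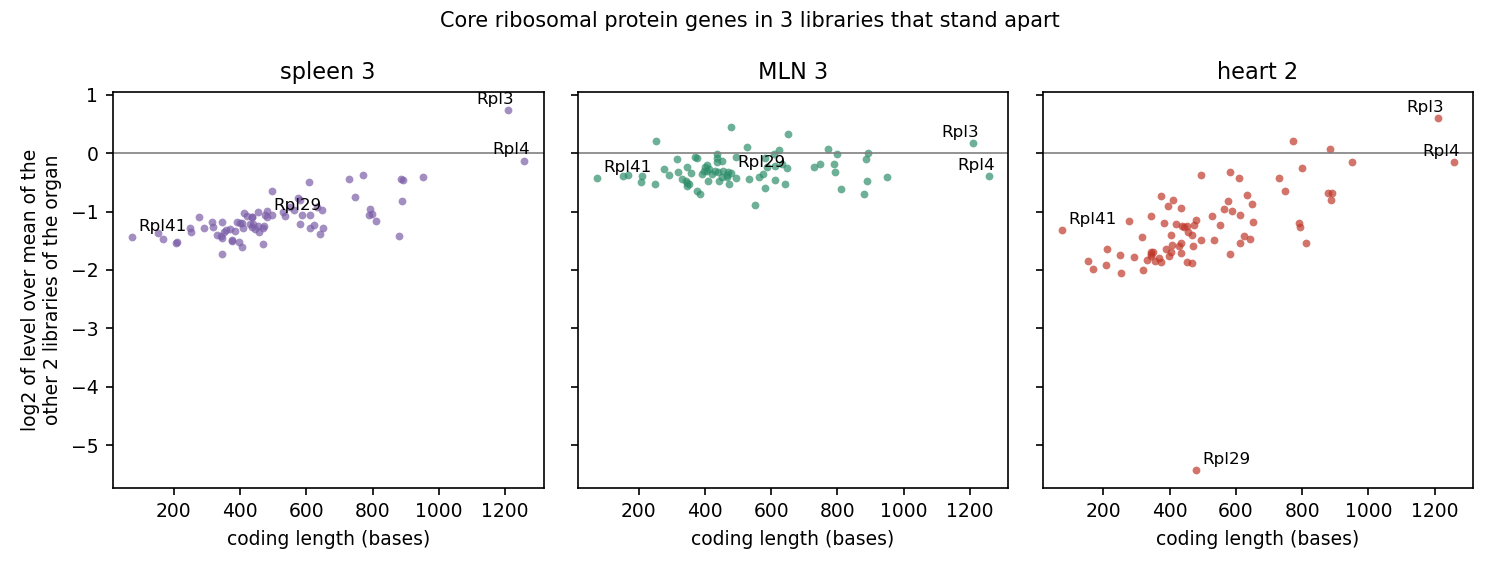
Log2 ratio of each core gene's level to the mean of the other 2 libraries of its organ (vertical axis) against coding length in bases (horizontal axis), in the 3 libraries that stand apart. Points rise from left to right in spleen 3 and heart 2 (Spearman's rho 0.70 and 0.67 over 77 genes) and lie nearly flat in MLN 3 (0.21).

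Within organs, the median coefficient of variation of the core genes was 43.8% in the spleen, 14.2% in the MLN and 47.1% in the heart. All 1907 well expressed genes, with a mean of at least 100 CPM and core genes not removed, had medians of 41.8%, 25.5% and 45.7% in the same order. In the MLN the median of the core genes was below that of this whole set, with Rpl26 the most even at 0.643%. The order of the core genes by level was similar everywhere: Spearman's rho between 2 libraries of the same organ had a median of 0.952 (0.831 to 0.988, 9 pairs), and between libraries of different organs 0.932 (0.848 to 0.983, 27 pairs).

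Core members differed widely in level. Per kilobase of coding sequence, the highest mean levels over the 9 libraries were those of Rpl32, Rpl41, Rpl11, Rps29 and Rpl38, at 7337, 6612, 4793, 4705 and 3842 CPM per kilobase. Rpl32 was at 2222, 905 and 2586 CPM across heart libraries 1, 2 and 3, 3922, 4303 and 3586 CPM in the MLN and 4212, 3360.0 and 1647 CPM in spleen libraries. Rpl41, whose protein is only a short basic peptide, was at 518, 212 and 540.3 CPM across heart libraries 1, 2 and 3, 676, 616 and 482 CPM in the MLN and 708, 489.9 and 220.3 CPM in spleen libraries. In both genes heart 2 was the lowest library. Rps29 was at 915, 234 and 949.9 CPM across heart libraries 1, 2 and 3, 981, 908 and 732 CPM in the MLN and 1166, 861 and 366 CPM in spleen libraries. Rpl38 was at 932, 297 and 917 CPM across heart libraries 1, 2 and 3, 958, 979 and 737 CPM in the MLN and 1179.8, 899 and 363 CPM in spleen libraries. For these 2 genes heart 1 and heart 3 lay within the MLN range, and heart 2 and spleen 3 lay below it. At the low end of the core genes were Rpl7a with 94.6 and Rps12 with 103.7 CPM per kilobase. Many ribosomal protein genes have near-identical copies in the genome, and the handling of reads that match several places is not given in the sources used here. A median of 93.0% of the 50-base stretches of a core gene's coding sequence also occurred in another gene model, with over 90% in 44 of 77 genes and under 10% in 3, among them Rpl8 and Rps3. Levels of single members are therefore uncertain. The 276 pseudogene rows with -ps names held few counts, 2.27 to 2.50 per 100 counts of the members in each library, and their level followed that of the members: the 132 that could be tested had a median log2 fold change of -0.78 against the MLN. For heart against MLN, the 10 core genes with under 50% shared sequence had a median of -0.87, and the other 67 had -0.80. These medians were -0.61 and -0.46 without heart 2, and -0.70 and -0.54 without spleen 3, MLN 3 and heart 2 together. The part of shared sequence in the difference was not tested. Genes with and without the pyrimidine run shown above had similar medians for heart against MLN, -0.81 in 32 and -0.77 in 25.

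Several related genes did not share the lower level in the heart. Rps27l (ENSMUSG00000036781, chromosome 9, 66946086 to 66949516, + strand), a close relative of Rps27 that p53 is known to induce, was at 877, 160.0 and 670.5 CPM across heart libraries 1, 2 and 3, 334, 322 and 168 CPM in the MLN and 391, 249.6 and 82.6 CPM in spleen libraries. Heart 1 and heart 3 were the highest of the 9 libraries, while heart 2 lay below MLN 3. Its log2 fold change was 1.06 against the MLN (SE 0.72, edgeR adjusted p = 0.589) and 1.24 against the spleen (SE 0.72, edgeR adjusted p = 0.554). Rps27 itself was at 848, 214 and 921 CPM across heart libraries 1, 2 and 3, 826, 944 and 1020.4 CPM in the MLN and 1123, 1001 and 415 CPM in spleen libraries, with heart 2 and spleen 3 lowest. Counts of Rps27l per 100 counts of Rps27 were 104, 74.9 and 72.8 in the heart, 40.4, 34.1 and 16.4 in the MLN and 34.8, 24.9 and 19.9 in the spleen. The heart libraries, heart 2 included, did not overlap with the others on this ratio, whose mean was 83.7 ± 17.2 in the heart, 30.3 ± 12.4 in the MLN and 26.6 ± 7.59 in the spleen (SD, n = 3 each). The promoters of the 2 genes are printed above. The pyrimidine run of Rps27 spans the RefSeq start, while that of Rps27l ends before it. Another annotated start of Rps27l had no such run.

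Rpl36al, whose coding sequence is wholly shared with other gene models, was at 211, 81.3 and 180.5 CPM across heart libraries 1, 2 and 3, 172, 173 and 135 CPM in the MLN and 192, 169.9 and 71.1 CPM in spleen libraries. Its log2 fold change between heart and MLN was -0.01 (SE 0.48, edgeR adjusted p = 0.996) and 0.083 with relative log expression factors, while each heart library lay below each MLN library for its parent Rpl36a, at 139, 38.9 and 171 CPM across heart libraries 1, 2 and 3, 242, 255 and 197 CPM in the MLN and 261, 153 and 86.2 CPM in spleen libraries (log2 -0.99, edgeR adjusted p = 0.504). Counts of Rpl36al per 100 of Rpl36a were 152, 209 and 105 in the heart, 70.9, 68.0 and 68.4 in the MLN and 73.4, 111 and 82.5 in the spleen. Heart libraries lay above all MLN libraries and overlapped with the spleen. The transcribed pseudogene Rps4l was at 10.9, 4.49 and 5.11 CPM across heart libraries 1, 2 and 3, 3.27, 3.86 and 2.00 CPM in the MLN and 2.27, 6.02 and 1.17 CPM in spleen libraries, which is higher in each heart library than in each MLN library (log2 1.17, SE 0.96, edgeR adjusted p = 0.689). Per 100 counts of Rps4x it reached 0.872, 0.900 and 0.498 in the heart, 0.181, 0.243 and 0.135 in the MLN and 0.152, 0.476 and 0.177 in the spleen, with no overlap between the heart and either lymphoid organ. Its parent Rps4x was at 1248, 499 and 1026 CPM across heart libraries 1, 2 and 3, 1803, 1589.8 and 1482 CPM in the MLN and 1492, 1265 and 663 CPM in spleen libraries, with every heart library below every MLN library (edgeR adjusted p = 0.437).

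Rpl22 and Rpl22l1 are paralogs of which the first is needed for development of T cells with the common form of the antigen receptor. Rpl22 was at 142, 100.04 and 318 CPM across heart libraries 1, 2 and 3, 291, 329 and 191 CPM in the MLN and 249.8, 151 and 79.4 CPM in spleen libraries, with heart 3 within the MLN range (log2 -0.53 against the MLN, edgeR adjusted p = 0.790, and 0.23 against the spleen, 0.972). Rpl22l1 was at 152, 46.9 and 239 CPM across heart libraries 1, 2 and 3, 169.8, 195 and 112 CPM in the MLN and 203, 115 and 74.2 CPM in spleen libraries (log2 -0.12 and 0.16, edgeR adjusted p = 0.972 and 0.987). The positive sign of both genes against the spleen turned negative with upper-quartile factors and with library totals. Per 100 counts of Rpl22 it reached 107, 46.9 and 75.4 in the heart, 58.4, 59.4 and 58.8 in the MLN and 81.4, 76.6 and 93.5 in the spleen. The MLN libraries were nearly equal and lay below every spleen library, and the heart libraries spanned both. Rpl7l1, a paralog that works in the assembly of the large subunit, was at 75.3, 24.3 and 42.8 CPM across heart libraries 1, 2 and 3, 75.3, 106 and 63.9 CPM in the MLN and 76.7, 60.9 and 76.3 CPM in spleen libraries. Per 100 counts of its parent Rpl7, it reached 15.2, 13.5 and 7.78 in the heart, 10.1, 15.5 and 13.7 in the MLN and 14.04, 12.8 and 33.3 in the spleen. Spleen 3 had the highest ratio and heart 3 the lowest, and the organs overlapped. Rpl7 was at 495, 179 and 549 CPM across heart libraries 1, 2 and 3, 745, 683 and 467 CPM in the MLN and 546, 475 and 229 CPM in spleen libraries, with an overlap between the heart and both other organs.

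**Figure D5:**
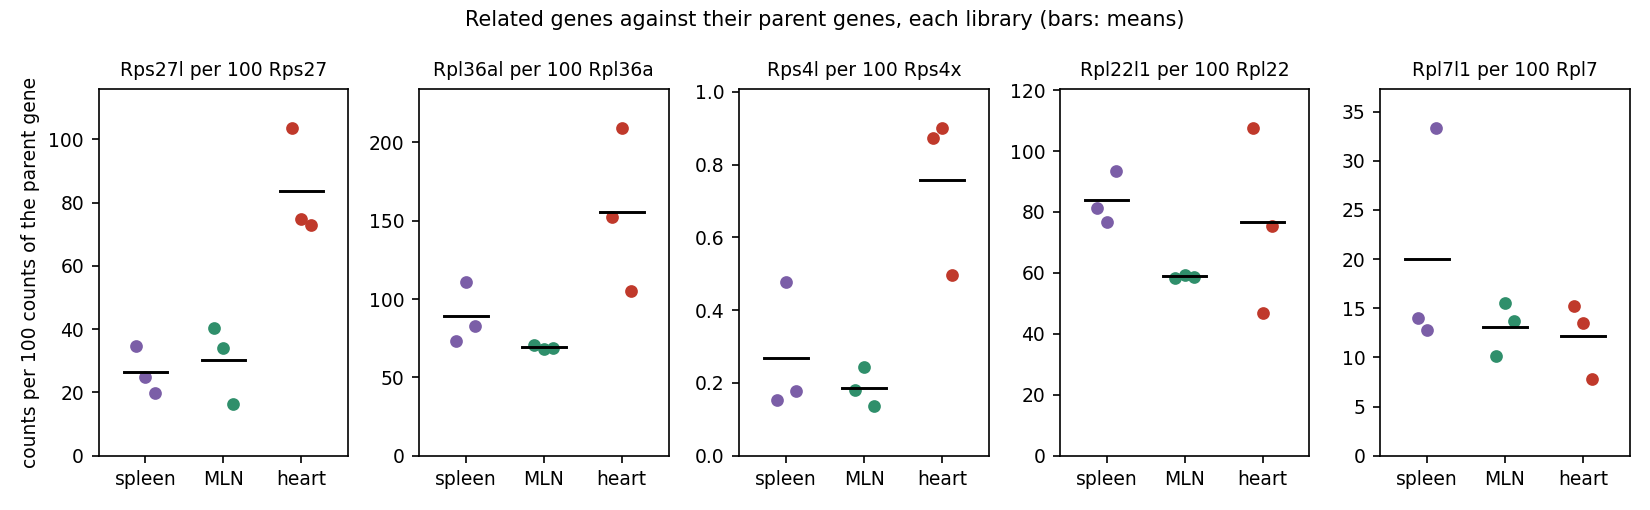
Counts of 4 paralogs and the pseudogene Rps4l per 100 counts of the parent gene (vertical axis, from 0, scaled for each pair) in each library, with organ means as bars. For Rps27l and Rps4l the 3 heart libraries (72.8 to 103.5 and 0.498 to 0.900) lie above the 6 lymphoid libraries; for Rpl36al they lie above the MLN alone, and for Rpl22l1 and Rpl7l1 they overlap with both.

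Each paralog tied to other tissues was at 0 in at least 1 library of every organ. Rpl3l, which replaces Rpl3 in striated muscle, had 25, 0 and 296 counts in heart libraries 1, 2 and 3, 0, 144 and 0 in the MLN and 0, 0 and 0 in the spleen (edgeR adjusted p = 0.938 against the MLN and 0.399 against the spleen), beside 105071, 198365 and 100434 counts of Rpl3 in the heart. The cardiomyocyte list held 0.0159% to 0.0443% of counts in the heart (15 of 15 genes detected) and at most 0.00545% in the spleen and 0.000872% in the MLN, where Myh6 was at 0. Rpl39l had 1285, 0 and 720 counts in the heart, 476, 840 and 0 in the MLN and 255, 0 and 365 in the spleen. Rpl10l and Rps12l1 had no count in any library, which allows up to 3 counts in each, by counting error only. The near-copy Rpl6l kept a nearly fixed proportion to its parent gene in every organ. Counts of Rpl6l per 100 of Rpl6 were 4.55, 4.56 and 4.32 in the heart, 4.52, 4.34 and 4.44 in the MLN and 4.70, 4.45 and 4.68 in the spleen. Rps3a2 and Rps3a3 varied more in proportion, at 0.144 to 0.198 and 0.0738 to 0.106 per 100 counts of Rps3a1 over the 9 libraries. Rps3a3 was at 1.94, 0.977 and 2.31 CPM across heart libraries 1, 2 and 3, 4.34, 4.07 and 3.08 CPM in the MLN and 3.87, 2.21 and 1.64 CPM in spleen libraries. Rps3a1, its parent and the second most abundant member, was at 2637, 1090.4 and 2585 CPM across heart libraries 1, 2 and 3, 4314, 4284 and 3445 CPM in the MLN and 3640.3, 2669.6 and 1628 CPM in spleen libraries, with each heart library below each MLN library.

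Other genes of ribosome production and control were read from lists chosen with earlier results of these data known. Of 36 translation factors, 0 were called in any comparison, and the medians of their log2 fold changes were -0.34 for heart against spleen and -0.27 for heart against MLN. Eef1g, a subunit of the complex that recharges elongation factor 1, was at 133, 192 and 141 CPM across heart libraries 1, 2 and 3, 338, 379.9 and 314 CPM in the MLN and 303, 268 and 356 CPM in spleen libraries, with no overlap between the heart and either lymphoid organ (log2 fold change -1.14, SE 0.29, edgeR adjusted p = 0.0954). Eef1d, a second subunit of that complex, had log2 -0.94 (edgeR adjusted p = 0.160). Of 40 ribosome biogenesis genes 0 were called. Heart levels were lower for 37 against the spleen and 29 against the MLN, where 49.0% and 46.5% of all genes were lower. The medians of the 40 genes were -0.59 and -0.47. Dkc1, the pseudouridine synthase of ribosomal RNA, had the smallest p among them. It was at 31.2, 24.2 and 36.6 CPM across heart libraries 1, 2 and 3, 78.6, 97.8 and 86.1 CPM in the MLN and 60.4, 43.2 and 68.7 CPM in spleen libraries, so that all heart libraries lay below all lymphoid ones (log2 fold change -1.51, SE 0.35, edgeR adjusted p = 0.0800). Ddx18, a helicase of the nucleolus, had log2 -1.46 (edgeR adjusted p = 0.105). Of 20 RNA polymerase I genes, 0 were called, with medians of -0.29 and -0.40, and Tbp and Polr1e had the smallest p, at log2 -1.23 and -2.96 against the MLN (edgeR adjusted p = 0.246 and 0.265). Of 10 tested genes on the list of other TOP messages, 1 was called, Vim, higher in the heart against each lymphoid organ. Among all genes, 1.10% were called higher against the MLN and 0.614% against the spleen. Vim, the gene of the intermediate filament vimentin, was at 445, 556 and 453 CPM across heart libraries 1, 2 and 3, 118, 99.9 and 91.9 CPM in the MLN and 93.3, 81.7 and 101 CPM in spleen libraries (log2 2.24 against the MLN and 2.40 against the spleen, edgeR adjusted p = 0.0193 and 0.0238). The other 9 had lower levels in the heart than in the MLN, while against the spleen 5 of the 10 were lower and 5 higher, with medians of -0.50 and -0.08. Among the 9 was Fau, which encodes a ribosomal protein fused to a ubiquitin-like protein. Fau was at 681, 367 and 613 CPM across heart libraries 1, 2 and 3, 1127, 957 and 921 CPM in the MLN and 957, 893 and 483 CPM in spleen libraries (log2 -0.85, edgeR adjusted p = 0.323). Of 31 tested genes of mTORC1 and TOP control, 17 were higher and 14 lower in the heart than in the MLN, with a median of 0.12, as for all genes, and the median against the spleen was -0.19. Among them 1 was called, Deptor, an inhibitor of mTOR, higher in the heart than in the MLN, where 1.10% of all genes were called higher. Deptor was at 17.7, 35.5 and 29.8 CPM in the heart, 0, 0 and 0 in the MLN and 5.34, 0.443 and 5.09 in the spleen (edgeR adjusted p = 0.0283 against the MLN and 0.308 against the spleen). Eif4ebp1, a repressor of translation that mTORC1 switches off, had log2 1.56 against the MLN (edgeR adjusted p = 0.160). Leaving out single libraries ended these calls. Those of Vim and of Deptor against the MLN were lost without any one of MLN 1, MLN 2, MLN 3, heart 1 or heart 3 (edgeR adjusted p = 0.0523 to 0.0971), and that of Deptor without heart 2 as well. Without spleen 3, MLN 3 and heart 2 together they were lost too (edgeR adjusted p = 0.100 for Vim and 0.143 for Deptor). That of Vim against the spleen was lost without any one of the spleen or heart libraries (edgeR adjusted p = 0.0537 to 0.0995). Vim is also made by fibroblasts and macrophages, whose markers were higher in the same heart libraries, and their part was not tested.

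In the list of ribosome quality control and stress, 1 of 23 tested genes was called higher in the heart against each lymphoid organ. Of all genes, 1.10% were called higher against the MLN and 0.614% against the spleen. Cdkn1a, the cell cycle inhibitor p21 and a classic target of p53, rose in the heart. It was at 227, 383 and 220.0 CPM across heart libraries 1, 2 and 3, 28.1, 16.0 and 12.1 CPM in the MLN and 12.6, 22.7 and 14.01 CPM in spleen libraries, a log2 difference of 3.89 from the MLN and 4.08 from the spleen (edgeR adjusted p = 0.0193 and 0.0238). Heart 2 had the highest value, unlike in most core ribosomal protein genes. The call against the MLN was lost without any one of MLN 1, MLN 2, MLN 3, heart 1 or heart 3 (edgeR adjusted p = 0.0523 to 0.0785), and that against the spleen without any one of the spleen or heart libraries (0.0537 to 0.0995). Without spleen 3, MLN 3 and heart 2 together the edgeR adjusted p was 0.121 and 0.125. The part of other cells in the Cdkn1a level was not tested. Mdm2 and Trp53, which encode the inhibitor of p53 and p53 itself, were not called. Mdm2 was at 76.8, 70.0 and 108 CPM across heart libraries 1, 2 and 3, 23.6, 31.3 and 27.1 CPM in the MLN and 44.7, 19.5 and 37.6 CPM in spleen libraries (log2 fold change 1.64, SE 0.43 against the MLN, edgeR adjusted p = 0.101). Trp53 was at 21.8, 44.3 and 18.6 CPM across heart libraries 1, 2 and 3, 75.9, 94.6 and 70.5 CPM in the MLN and 89.9, 81.8 and 127 CPM in spleen libraries (log2 fold change -1.50, SE 0.43, edgeR adjusted p = 0.125). For both genes the heart libraries did not overlap with either lymphoid organ, with Mdm2 high and Trp53 low in the heart. Against the MLN, 14.9% of all genes were higher and 11.3% lower in the heart without overlap. Genes of the mitochondrial ribosome, 78 of which were tested, had medians nearer to those of all genes, at -0.38 against the MLN and -0.13 against the spleen. A single one of them was called, Mrps35, which fell in the heart relative to the MLN, where 0.283% of all genes were called lower. Mrps35 was at 12.5, 12.4 and 17.5 CPM across heart libraries 1, 2 and 3, 63.3, 61.3 and 60.1 CPM in the MLN and 59.4, 49.5 and 30.4 CPM in spleen libraries (log2 fold change -2.12, SE 0.40, edgeR adjusted p = 0.0479). This call was lost without any one library other than spleen 3 (edgeR adjusted p = 0.0619 to 0.153), and with upper-quartile factors (0.0505), with no low-count filter (0.0758) and without spleen 3, MLN 3 and heart 2 together (0.136). Mrpl9, with the next smallest p, had log2 -1.94 (edgeR adjusted p = 0.0502).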

How the data were processed

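RNA of Tregs sorted from 3 organs was measured by RNA-seq in 9 libraries, 3 for each organ. The deposited table holds raw read counts for 49510 genes. Reads were processed by the authors with CASAVA 1.8.2, HISAT2 and HTSeq 0.6.0 on mm10, per the submitters' processing notes. The annotation release, the strand setting and the handling of reads with several matches are not stated in the sources used here. Levels (CPM) are counts scaled by library size and edgeR's TMM factors, and shares are percentages of all counts of a library. Genes that passed edgeR's low-count filter (minimum count 10, 16609 genes) were fitted with the edgeR 4.0.16 quasi-likelihood test in R 4.3.3, with a term for each organ, all 9 libraries and 6 residual degrees of freedom. P-values were adjusted over all genes by the Benjamini-Hochberg method, with a threshold of 0.05. The median biological coefficient of variation was 102%. Standard errors were derived from the test statistic. The fit was run on simulated data with changes larger than those of the core members. This does not show how often it calls differences of their size. Alternatives were DESeq2 1.42.0, limma 3.58.1 (voom), other scalings and filters, a fit on the organs compared, a replicate block, and leaving out libraries. Leaving out spleen 3, MLN 3 and heart 2 together was added after seeing the data, as were all alternatives to the counts of members without overlap. Coordinates and coding lengths are from GENCODE vM21 (GRCm38, the same assembly as mm10), and sequences from RefSeq on GRCm38.p6.

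The members and lists were chosen with earlier results of these data known. Values in every library are given for members called in a comparison, the 3 highest and 3 lowest fold changes among members with a mean of at least 10 CPM, the 5 most and 5 least abundant per kilobase, paralogs with their parent genes, and Rpl5, Rpl11, Rps6, Rps19, Rpsa, Rplp0 and Rps27a. Of each pathway list, called genes and those with the smallest p against the MLN are named. Some genes that these rules pick are not reported here. Of the lists not described in the report, pan-T markers held 0.258% to 0.505% of counts in the heart and 0.591% to 0.825% in the lymphoid organs, and mitochondrially encoded genes had a median log2 fold change of 0.47 against both lymphoid organs with 0 called. The count of 0 in a library allows up to 3 counts, by counting error only.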

Additional observations from a re-analysis of the deposited data

How the results depend on the processing

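The medians of the ribosomal protein genes kept their direction under each of the 19 alternatives, ranging without 1 library from -0.997 to -0.47 for heart against MLN, from -0.67 to -0.05 for heart against spleen and from 0.11 to 0.73 for MLN against spleen. Scaling moved the median of all genes, from 0.12 to 0.22 with relative log expression factors, -0.14 with upper-quartile factors and -0.10 with library totals for heart against MLN. Relative to that shift, the members lay at -0.92, -0.92, -0.90 and -0.98, but at -0.45 without heart 2. Members called lower numbered 9 (DESeq2), 5 (limma-voom) and 4 (library totals) for heart against MLN, where 4.14%, 1.55% and 0.385% of all genes were, and 1 (DESeq2) for heart against spleen, where 3.65% were.

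Over all genes, 131 were called for heart against spleen, and 1875 by DESeq2, 1141 by limma-voom, 292 in a fit of the 2 organs only, 3 without spleen 3, MLN 3 and heart 2 together, and 0 to 122 without 1 library. For heart against MLN 230 were called, and in the same order 2211, 1332, 548, 4 and 0 to 249. For MLN against spleen DESeq2 called 727 and limma-voom 3, against 0.

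Members without overlap ranged without 1 library from 5 to 42 for heart against spleen (12.6% of all genes at 42) and from 5 to 56 for MLN against spleen (10.7% at 56). With library totals they were 21 and 15 (9.87% and 4.66% of all genes), and without the 3 libraries together 43 and 37 (19.6% and 18.9%). For MLN against spleen they were 2 with relative log expression or upper-quartile factors (4.12% and 4.69%). The MLN share was 7.28% with pseudogene rows added.

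Same-numbered libraries did not deviate together (correlations from -0.13 to 0.11). The labels do not say whether the numbers pair the samples. These correlations cannot decide it, because samples of the same animal need not deviate together. With a replicate block, 0 genes were called in each comparison, and the members' medians were -0.84, -0.39 and 0.43.

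Directions turned for members near 0. Against the spleen, Rpl22, Rpl22l1 and Rpl36al were at -0.0035, -0.055 and -0.096 with upper-quartile factors and -0.052, -0.17 and -0.17 with library totals. Against the MLN, Rpl36al was at 0.083 with relative log expression factors and DESeq2, and Rpl36al, Rpl22l1 and Rps27 were at 0.21, 0.13 and 0.023 without the 3 libraries. For MLN against spleen, Rps2 was at -0.0094 with relative log expression factors and DESeq2, and at -0.12 without the 3 libraries. Without 1 library, the ranges that crossed 0 were -0.40 to 0.70 for Rpl22, -0.39 to 0.63 for Rpl22l1, -0.19 to 0.45 for Rpl36al and -0.68 to 0.068 for Rps27 against the spleen, -0.67 to 0.30 for Rpl22l1 and -0.29 to 0.30 for Rpl36al against the MLN, and -0.087 to 0.39 for Rpl3 and -0.31 to 0.31 for Rps2 between MLN and spleen. The cause was not tested.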
